A study of Canis lupus familiaris with 25 samples.

Results

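The haemoglobin genes HBA1 (ENSCAFG00000029904), HBA2 (ENSCAFG00000032615), HBB (ENSCAFG00000030286), HBD (ENSCAFG00000029518) and HBM (ENSCAFG00000029224) were followed through RNA-Seq counts of the canine prostate. They are the globin genes that the study names with Ensembl IDs, and they make up 5 of the 32220 IDs counted in each of 25 samples. The study took them from genes called at an FDR under 0.00001 in both aspirate groups against non-malignant tissue, but not in malignant tissue. Their direction and calls in aspirates are therefore not independent evidence, and nor is the lack of such a call between the tissues. Tissue collected post mortem was non-malignant in 9 samples (numbered PT-10 and up) and malignant in 9 (PT-1 up to PT-9). Fine-needle aspirates drawn under ultrasound guidance (US-FNA) were non-malignant in 5 samples (US-40, US-32, US-15, US-13 and US-7) and malignant in 2 (US-4 and US-3). The non-malignant groups held intact dogs, aged 1 to 16 years (median 6) for tissue and 4 to 10 years (median 7) for US-FNA. Among the malignant tissues 6 of 9 came from neutered dogs, at ages of 8 to 12 years (median 9), and the malignant aspirates came from neutered dogs of 9 and 10 years. Diagnosis therefore runs together with neutering. Sample type runs together with the kit used to isolate RNA and, US-3 perhaps aside, with collection in life or post mortem. None of these was told apart here. The study gives no RNA integrity number for US-3. The study describes matched tissue for euthanised dogs with US-FNA. It marks the dog of US-3 as such a dog, and not the dog of US-4, so US-3 and a malignant tissue may share a dog. The US-FNA of that dog was repeated right after euthanasia, and US-3 may be the repeat. The study lists the matched tissues of such dogs under sampling in life, and the 9 sequenced malignant tissues under post mortem sampling. Its post mortem carcinomas came from 3 intact and 6 neutered dogs, as did the 9 malignant tissues here. The labels do not say whether the matched tissue is among those sequenced, and the p-values measure the spread between these samples. Counts on genes ranged from 3355926 to 6594032 per sample.

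Adult haemoglobin is a tetramer that joins alpha chains, encoded by HBA1 and HBA2, with beta-type chains, encoded here by HBB and HBD. HBM lies in the alpha gene cluster of mammals and encodes a minor alpha-like chain. The mRNAs are made in erythroid precursors, and young red cells still carry them into the blood, so that globin mRNA is known as a component of RNA from samples that contain blood. HBA1 and HBA2 are near-identical paralogues. Reads cannot be assigned between them with certainty, and their sum does not depend on how reads are split between them. Reads that fit both genes may have been left out of both counts, in which case the sum is too low as well. Whether such a loss differed between samples was not tested. No gene lengths were used, so count ratios between genes were compared only from sample to sample. In bulk samples, fewer cells of a type and less RNA per cell cannot be told apart.

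The prostate label was checked with KLK2, KLK4 and ACPP, genes of prostatic secretion. KLK2 took 29.6% to 43.8% of the counts in the 5 non-malignant US-FNA samples, and both malignant US-FNA samples held 18 and 19 KLK2 counts. KLK4 was present with 774 to 1605 counts in non-malignant and 2 and 6 counts in malignant US-FNA, and ACPP with 278 to 1239 and with 5 and 45 counts. In edgeR, none of these 3 genes passed an FDR of 0.05 between non-malignant US-FNA and non-malignant tissue (FDR 0.425 to 0.959). Malignant tissue had 3 to 2928 KLK2 counts (median 45), 1 to 30 KLK4 counts (median 11) and 5 to 129 ACPP counts (median 16). The secretory genes were thus low in the malignant samples of both types. The study names them as genes lower in both, so this is not independent evidence. With such low counts, these genes do not check the prostate label of the malignant samples.

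Among the alpha genes, HBA1 had 15199 counts in US-13, 9760 in US-7, 4479 in US-15, 3797 in US-32 and 272 in US-40. The malignant aspirates US-3 and US-4 held 31097 and 27753 HBA1 counts. In non-malignant tissue the HBA1 count was 1 at the lowest, 25 at the median and 48 at the highest, and in malignant tissue it was 0, 14 and 212. Each of the 7 US-FNA samples exceeded each of the 18 tissues in HBA1, with US-3 and US-4 highest and US-40 far below the other aspirates. The share of all genes with 7 aspirates above 18 tissues was not counted. By eye, the study scored blood as strong in US-40, US-15 and US-3, moderate in US-7 and US-32, and weak in US-13 and US-4. US-40 was thus scored strong with the lowest HBA1, and US-4 weak with a high HBA1. The relation of score to globin counts was not tested.

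HBA2, the second alpha gene, had 20136 counts in US-13, 6782 in US-7, 4010 in US-32, 3512 in US-15 and 342 in US-40. It reached 37931 counts in US-3 and 31147 in US-4. Non-malignant tissue had 0 to 73 HBA2 counts (median 26) and malignant tissue 1 to 219 (median 14). The aspirates and the tissues did not overlap in HBA2 either, again without a count of all genes that show this. US-13 lay between the malignant aspirates in CPM after TMM scaling.

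HBB, the adult beta chain, had 30131 counts in US-13, 15971 in US-7, 13423 in US-15, 6868 in US-32 and 557 in US-40. The malignant aspirates had 85693 counts in US-3 and 58953 in US-4. Non-malignant tissue had 1 to 107 HBB counts (median 40) and malignant tissue 2 to 257 (median 19). Ordered by count, HBB was the most abundant of all genes in US-3 (rank 1), ranked 5 to 25 in US-4, US-13, US-15, US-7 and US-32, and ranked 989 in US-40. In tissue its best rank was 3741.

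HBD, the second beta-type gene, did not follow HBB in the same order. It had 2430 counts in US-7, 1103 in US-13, 168 in US-32, 141 in US-15 and 23 in US-40. The malignant aspirates held 2487 counts in US-3 and 2428 in US-4. US-7 thus reached the HBD count of the malignant aspirates, although its HBB count was far below theirs. In tissue, HBD reached at most 4 counts in non-malignant samples (median 1) and 12 in malignant samples (median 1), and 7 of the 18 tissues had no HBD count. A count of 0 allowed a level of up to 0.540 to 0.705 CPM before scaling in these 7 tissues (3 counts in the library).

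HBM, the minor alpha-like gene, had 227 counts in US-13, 84 in US-15, 66 in US-7, 23 in US-32 and 3 in US-40. US-3 had 625 HBM counts and US-4 had 291. In the 9 non-malignant tissues there were 3 HBM counts in all, 2 of them in PT-11 and 1 in PT-15. Malignant tissue had 43 HBM counts in all, from 0 in PT-1 and PT-8 to 11 in PT-2 (median 4). Aspirates and tissues overlapped in HBM, since US-40 had 0.645 CPM, just above the highest non-malignant tissue (PT-11, 0.606 CPM) and below the malignant tissues PT-4 (1.64 CPM), PT-2, PT-5, PT-7 and PT-9 (0.714 CPM). The other 6 aspirates were above all 18 tissues in HBM.

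**Figure D1:**
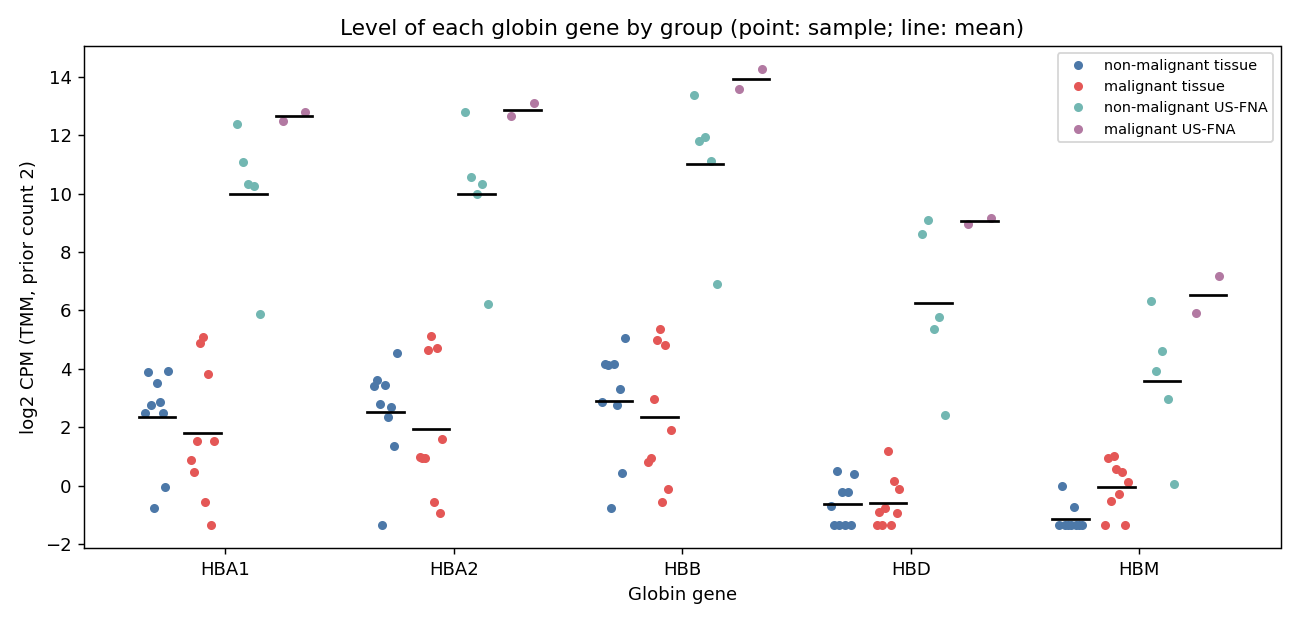
Level of each globin gene (x axis) as log2 CPM after TMM normalization (y axis), with 1 point per sample, the 4 groups in color and a line at each group mean. All 7 US-FNA samples lie above the 18 tissues for HBA1, HBA2, HBB and HBD, whereas for HBM the lowest, US-40 (0.645 CPM), lies below 5 malignant tissues. The share of all genes with 7 aspirates above 18 tissues was not counted.

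The range within the aspirates was wide for each gene. From US-40 to US-3 the CPM rose 122-fold for HBA1, 119-fold for HBA2, 165-fold for HBB, 116-fold for HBD and 223-fold for HBM, the last of which rests on 3 counts in US-40. Within the 5 non-malignant US-FNA samples, the SD of log2 CPM was 2.32 to 2.71 over the 5 genes, against a median SD of 0.49 over all 15296 genes past the filter on low counts. HBB had an SD of 1.90 in non-malignant and 2.28 in malignant tissue, where the medians of all genes were 0.56 and 0.69. HBA1, HBA2 and HBB were each at or above the 97.4th percentile of the SD within either tissue group. The percentile was 70.8 in non-malignant and 64.3 in malignant tissue for HBD, and 38.1 and 66.7 for HBM. HBD was at 0 counts in 4 non-malignant and 3 malignant tissues, and HBM in 7 and 2. Samples at 0 counts share the same log2 CPM, so these SDs depend on the prior count. In malignant tissue, PT-4, PT-5 and PT-7 held 425, 707 and 559 counts on the 5 genes, and the other 6 tissues held 6 to 76. The counts were 6 to 425 (median 39) in the 3 intact dogs with malignant tissue and 9 to 707 (median 65.5) in the 6 neutered dogs.

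The first comparison asked how far aspirates differed from tissue within the non-malignant diagnosis. All 5 genes were higher in US-FNA, and in each gene every one of the 5 aspirates lay above every one of the 9 tissues, a pattern shown by 2.01% of the 15210 genes tested. In edgeR's quasi-likelihood test, 5 of 5 passed an FDR under 0.05 (7.34% of all genes were called higher), and 0 of 5 passed an FDR under 0.00001 (0.0131% of all genes). All 5 had an unadjusted p under 0.05, as did 5055 of 15210 genes in either direction, and DESeq2 called 5 of 5 at an FDR under 0.00001 (123 of 23402 genes higher). The log2 fold change was 8.17 for HBA1 (SE 0.84, FDR 2.6e-05), 8.07 for HBA2 (SE 0.87, FDR 3.77e-05), 8.42 for HBB (SE 0.90, FDR 3.77e-05) and 9.22 for HBD (SE 0.95, FDR 2.6e-05). For HBM it was 7.84 (SE 0.92, FDR 8.37e-05), against 3 counts in non-malignant tissue. The ratio of summed HBM counts, relative to the summed library sizes before TMM scaling, was 283, with an exact 95% counting interval of 96.1 to 1377. The median log2 fold change of all genes was 0.02 and that of the 5 genes 8.17. HBD and HBM reached 10 counts in 1 tissue each and passed the filter on low counts through the aspirates. The study also chose all 5 genes by DESeq2 calls at an FDR under 0.00001 between these groups. The number of genes that passed and the lack of overlap are therefore no support. Without US-40, 5 of 5 passed an FDR under 0.00001 in edgeR (FDR 1.42e-06 to 4.28e-06), with 12 of 15206 genes called higher in all, and over all alternatives the FDR of a globin gene ranged from 2.46e-18 to 0.000269. Without US-13, the fold change fell from 288 to 174 for HBA1, from 269 to 123 for HBA2, from 343 to 210 for HBB and from 229 to 110 for HBM, and without US-7 it fell from 598 to 346 for HBD.

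Malignant US-FNA was compared with malignant tissue in the same way. Both aspirates lay above all 9 tissues in each of the 5 genes, which 4.26% of the 15260 genes tested also showed. The edgeR test called 5 of 5 at an FDR under 0.05 (2.46% of all genes were called higher) and 0 of 5 at an FDR under 0.00001 (0% of all genes). All 5 had an unadjusted p under 0.05, as did 2361 of 15260 genes in either direction, and DESeq2 called 5 of 5 at the stricter threshold (40 of 22833 genes higher). The study chose the genes by calls of these malignant aspirates against non-malignant tissue, so neither these counts nor the lack of overlap is support. The log2 fold change was 10.37 for HBD (SE 0.95, FDR 0.000902) and 10.33 for HBB (SE 1.42, FDR 0.00659). HBA2 differed by 9.54 (SE 1.45, FDR 0.00977) and HBA1 by 9.47 (SE 1.49, FDR 0.00989). HBM differed by 7.12 (SE 0.82, FDR 0.00357). The median of the 5 genes was 9.54 and that of all genes -0.09. Without US-3, 12 of 15256 genes were called higher at an FDR under 0.05 (376 of 15260 with it), 2 of the 5 globin genes among them, and the FDR was 0.0795 for HBA1 (8.43e-09 to 0.0795 over the alternatives), 0.0745 for HBA2 (5.65e-08 to 0.0745) and 0.0529 for HBM (4.66e-10 to 0.0529). The log2 fold change without US-3 was 9.28 for HBA1, 9.29 for HBA2 and 6.34 for HBM, the last a fall from 139-fold to 81.2-fold. Whether the gap between aspirates and tissue differed by diagnosis was tested with an interaction term in edgeR. It passed an FDR under 0.05 in 0 of 5 genes (1.32% of all genes did), with FDRs of 0.624 to 0.805 and 0 of 5 unadjusted p under 0.05 (2270 of 15296 genes), and DESeq2 was not run for this term.

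**Figure D2:**
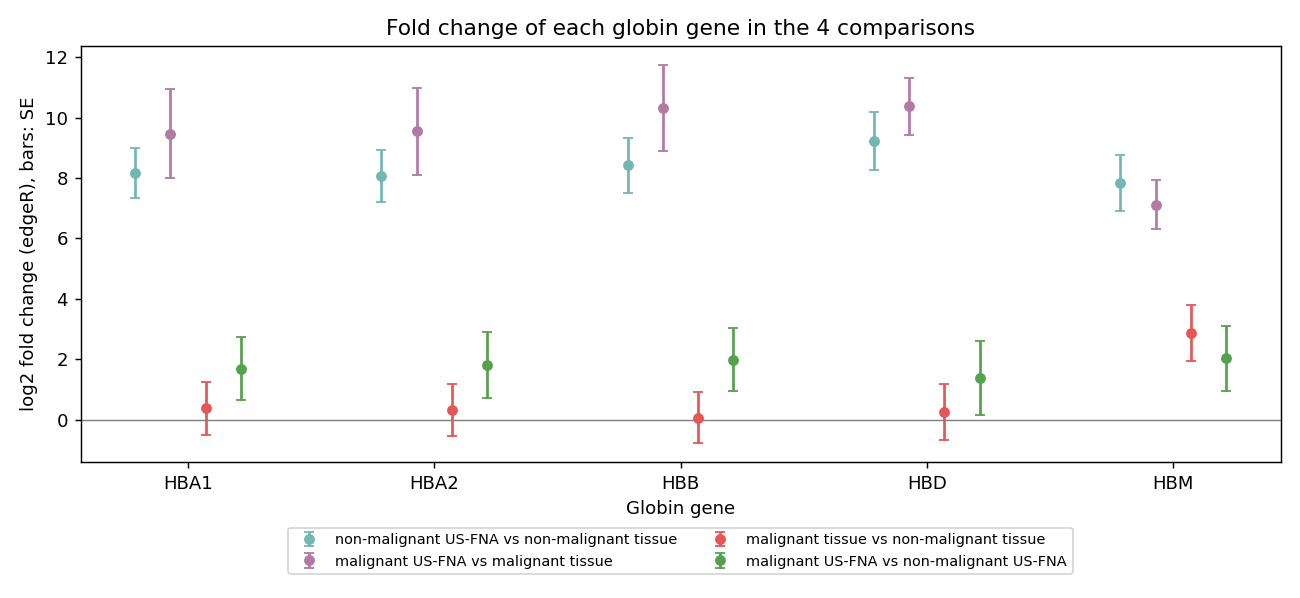
The log2 fold change in edgeR (y axis, bars are SE) of each globin gene (x axis) in the 4 comparisons. Both comparisons of US-FNA with tissue lie between 7.12 and 10.37, and those of diagnosis between 0.07 and 2.86.

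Between the diagnoses, the groups of tissue overlapped in all 5 genes. No globin gene was called at an FDR under 0.00001 between malignant and non-malignant tissue (3.35% of all genes were called higher), and 1 of 5 at an FDR under 0.05 (32.8% of all genes). DESeq2 gave the same counts, 0 and 1 (2023 and 5227 of 23291 genes higher), and 1 gene had an unadjusted p under 0.05, as did 9570 of 15293 genes in either direction. The study chose genes not called between these tissues at an FDR under 0.00001 in DESeq2. The 0 calls at that threshold are therefore not independent evidence. The log2 fold change was 0.07 for HBB (SE 0.85, FDR 0.948), 0.33 for HBA2 (SE 0.87, FDR 0.763), 0.38 for HBA1 (SE 0.88, FDR 0.730) and 0.26 for HBD (SE 0.92, FDR 0.824), and the median was 0.33 over the 5 genes and 0.17 over all genes. Summed counts relative to the summed library sizes, before TMM scaling, gave ratios of 1.78 for HBB, 2.12 for HBA2, 2.10 for HBA1 and 2.01 for HBD, against fold changes of 1.05, 1.25, 1.30 and 1.19 in edgeR after it. The called gene was HBM, at 2.86 (SE 0.93, FDR 0.0131, and 0.0104 to 0.0255 over the alternatives). Its 43 and 3 summed counts gave a ratio of 14.4 relative to the summed library sizes before TMM scaling, against a fold change of 7.28 in edgeR after it, with an exact 95% counting interval of 4.62 to 72.8. PT-2, PT-4, PT-5, PT-7 and PT-9 were above the highest non-malignant tissue in HBM, and the other 4 malignant tissues were not.

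Both malignant aspirates had more of all 5 genes than the mean of the non-malignant aspirates. No gene passed an FDR under 0.05 (16.5% of all genes were called higher) or under 0.00001 (0% of all genes). The log2 fold changes were 1.69 for HBA1, 1.81 for HBA2, 1.98 for HBB, 1.38 for HBD and 2.04 for HBM, with SEs of 1.04 to 1.23 and FDRs of 0.182 to 0.424. In edgeR 0 of 5 genes had an unadjusted p under 0.05 (6329 of 15232 genes in either direction), and DESeq2 called 0 of 5 at an FDR under 0.05 (2798 of 23037 genes higher). The median was 1.81 over the 5 genes and 0.13 over all genes. Both malignant aspirates lay above all 5 non-malignant ones in HBA1 and HBB, while US-13 overlapped them in HBA2 and HBM and US-7 in HBD. The share of all genes with both malignant aspirates above all 5 was not counted. Without US-13, the FDR was 0.0475 for HBA2 (0.0475 to 0.448 over the alternatives) and 0.0446 for HBM (0.0446 to 0.526), with 2177 of 15199 genes called higher. Its omission raised the fold change from 3.52 to 7.73 for HBA2, from 4.10 to 8.58 for HBM, from 3.23 to 5.37 for HBA1 and from 3.96 to 6.46 for HBB. Without US-7 the HBD fold change was 4.52 in place of 2.61, and without US-3 that of HBM was 2.44. By mean CPM, malignant US-FNA was first and non-malignant US-FNA second for the 5 genes, with both tissue groups below. The aspirate groups were not separated by the test, nor were the tissue groups in HBA1, HBA2, HBB and HBD.

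The balance of alpha to beta counts was not used to choose the genes. HBA1 plus HBA2 made up 53.1% of the alpha and beta counts in US-13 (95% Wilson interval 52.7% to 53.5%), 52.6% in US-32 (51.8% to 53.4%) and 51.4% in US-40 (48.6% to 54.2%). The share was 47.3% in US-7 (46.8% to 47.9%) and 37.1% in US-15 (36.4% to 37.7%). US-4 had 49.0% (48.7% to 49.3%) and US-3 43.9% (43.7% to 44.2%). The intervals cover counting error only and leave out any loss of reads that fit both alpha genes. They did not touch between US-15 and any other aspirate, nor between US-3 and any other aspirate. Expressed as a count ratio of alpha to beta, the aspirates ran from 0.589 in US-15 to 1.13 in US-13.

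In the tissues, the balance could be read only where at least 10 alpha and beta counts were present, which left 8 non-malignant and 7 malignant tissues. The log2 ratio of alpha to beta was 0.50 ± 0.60 (SD, n = 8) in non-malignant tissue, ranging from -0.47 in PT-12 to 1.40 in PT-17. It was 0.45 ± 0.63 (SD, n = 7) in malignant tissue, ranging from -0.87 in PT-3 to 1.14 in PT-1. Non-malignant US-FNA had a mean of -0.10 ± 0.39 (SD, n = 5) and the malignant aspirates had -0.35 in US-3 and -0.06 in US-4. Aspirates had lower means than tissue, and the ranges overlapped. The difference was -0.60 within the non-malignant samples (two-sided exact permutation test, p = 0.0715, BH-adjusted 0.572 over 16 ratio tests) and -0.66 within the malignant samples (two-sided exact permutation test, p = 0.194, BH-adjusted 0.874, smallest possible p 0.0278). Between the diagnoses, the difference was -0.05 in tissue (two-sided exact permutation test, p = 0.874, BH-adjusted 0.874). In US-FNA it was -0.11 (two-sided exact permutation test, p = 0.810, BH-adjusted 0.874, smallest possible p 0.0476). These tests do not show that the ratios were alike. PT-17, for example, had 14 alpha and 5 beta counts.

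Within the alpha pair, HBA1 took 59.0% of the counts in US-7 (95% Wilson interval 58.2% to 59.7%) and 56.1% in US-15 (55.0% to 57.1%). The other 5 aspirates had HBA1 shares of 43.0% to 48.6%. The share was thus higher in US-7 and US-15 than in the other aspirates, although the intervals leave out the uncertain assignment of reads between HBA1 and HBA2. Tissue shares with at least 10 alpha counts ran from 21.4% in PT-17 to 61.5% in PT-3. None of the 4 comparisons of the HBA1 share passed the test, with differences of -4.12 to 5.85 percentage points and two-sided exact permutation p of 0.377 to 0.750 (BH-adjusted 0.874). Leaving out 1 aspirate moved non-malignant US-FNA minus non-malignant tissue between 3.65 and 7.64 points. Malignant minus non-malignant US-FNA moved between -5.91 and -1.92 points, and malignant US-FNA minus malignant tissue between -2.68 and -0.613 points.

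The HBD share of beta counts differed between the aspirates. It was 13.2% in US-7 (95% Wilson interval 12.7% to 13.7%), 3.97% in US-40 (2.66% to 5.88%), 3.53% in US-13 (3.33% to 3.74%), 2.39% in US-32 (2.06% to 2.77%) and 1.04% in US-15 (0.882% to 1.22%). The malignant aspirates had 3.96% in US-4 (3.80% to 4.11%) and 2.82% in US-3 (2.71% to 2.93%). US-7 stood above all other aspirates and US-15 below them, beyond counting error. These samples had close HBB levels of 3565 CPM in US-7 and 3891 CPM in US-15, whereas HBD was 542 CPM in US-7 and 40.9 CPM in US-15, a 13.3-fold ratio. In tissue the share ranged from 0% to 13.6%, the latter resting on 3 HBD counts in PT-9. The mean ± SD was 2.70% ± 2.15 over 7 non-malignant tissues, 4.24% ± 5.11 over 7 malignant tissues and 4.83% ± 4.82 over the 5 non-malignant aspirates. The 4 differences ranged from -1.44 to 2.12 percentage points (two-sided exact permutation tests, p = 0.370 to 0.833, BH-adjusted 0.874). Without US-7, the difference between non-malignant US-FNA and non-malignant tissue was 0.0289 percentage points (BH-adjusted p 0.985, and 0.640 to 0.985 over the alternatives).

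HBM took under 1% of the globin counts in each aspirate. The lowest share was 0.155% in US-32 (95% Wilson interval 0.103% to 0.232%) and the highest was 0.396% in US-3 (0.366% to 0.428%). In non-malignant tissue the share had a mean of 0.317% ± 0.589 (SD, n = 8), with 0 HBM counts in 6 of these 8 samples. In malignant tissue it was 26.8% in PT-2 (15.7% to 41.9%), 7.27% in PT-9, 2.63% in PT-3, 1.88% in PT-4, 1.43% in PT-7, 0.990% in PT-5 and 0 in PT-1, with a mean of 5.86% ± 9.54 (SD, n = 7). In PT-2, the 11 HBM counts equalled the 11 counts each of HBA2 and HBB. The malignant tissues were higher than the non-malignant tissues by 5.55 percentage points, 5 of 7 lying above all 8 (two-sided exact permutation test, p = 0.00513, BH-adjusted 0.0821), which did not pass the correction. Leaving out PT-2, chosen after its value was seen, gave 2.05 percentage points (two-sided exact permutation test, p = 0.0133, BH-adjusted 0.213, and 0.125 to 0.270 over the alternatives). The other 3 comparisons of the HBM share had BH-adjusted p of 0.874 in the two-sided exact permutation test.

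**Figure D3:**
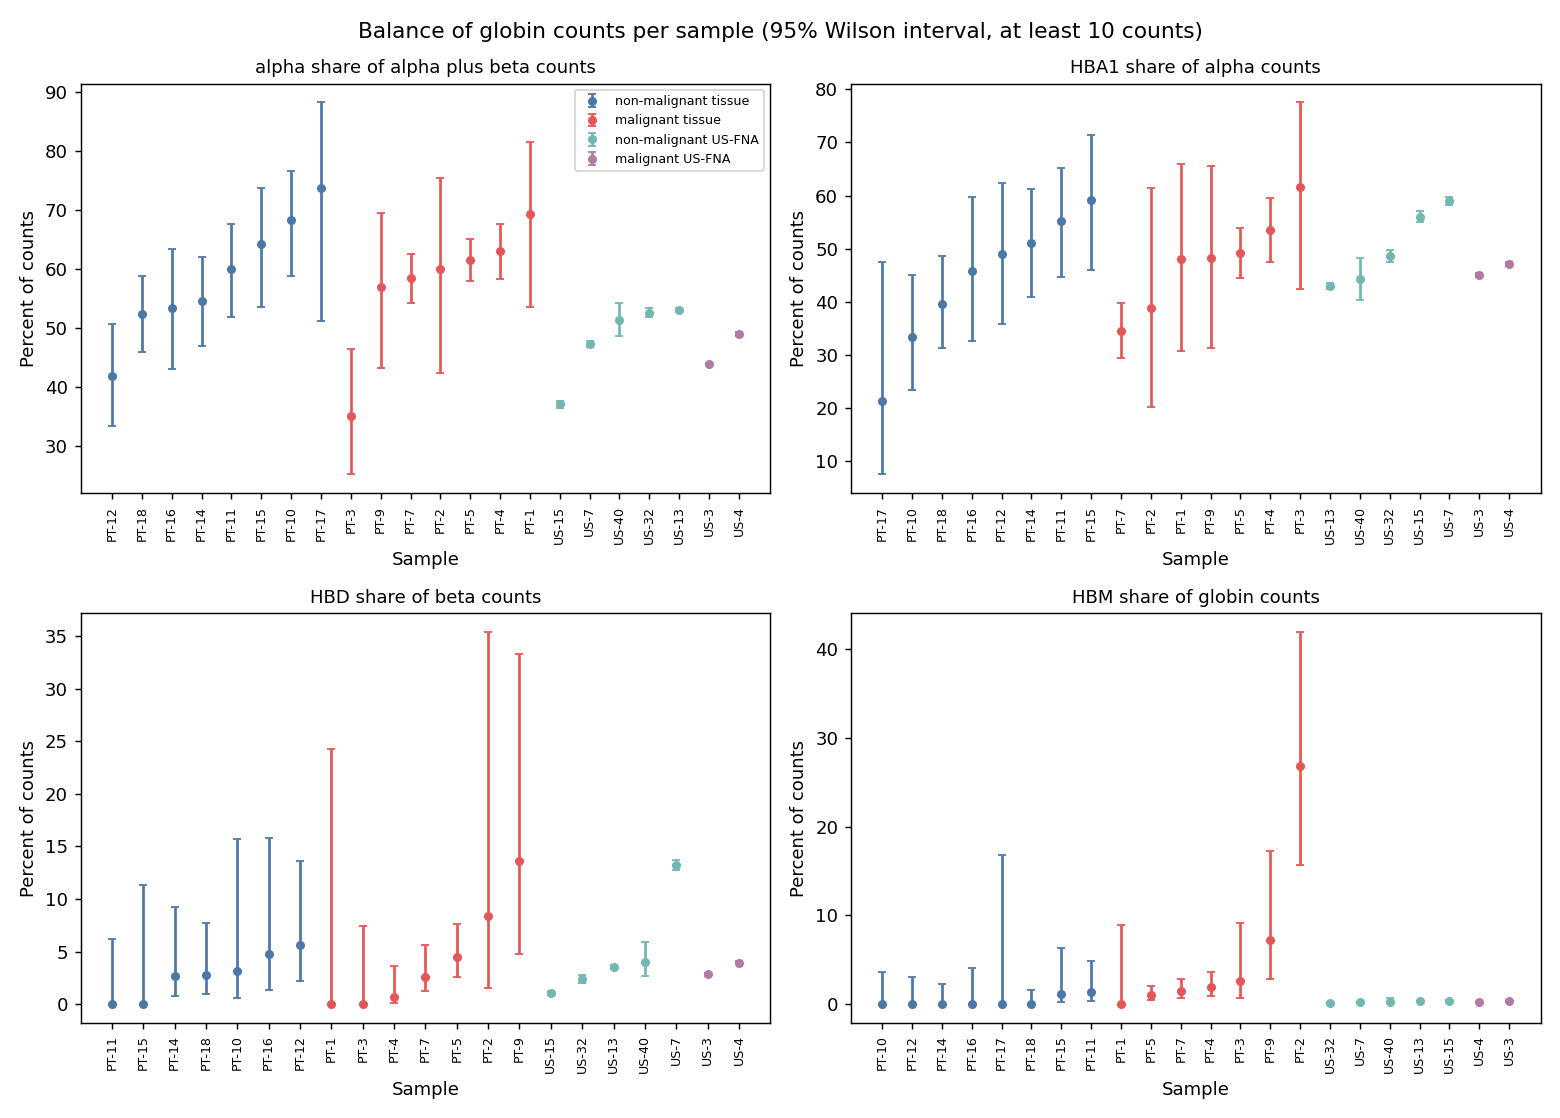
Panels give the percent of counts (y axis) per sample (x axis, ordered within the 4 colored groups) for the alpha share, the HBA1 share of alpha, the HBD share of beta and the HBM share of globin counts, with 95% Wilson intervals as bars and samples with fewer than 10 counts left out. US-7 is high in HBD with 13.2%, and PT-2 is high in HBM with 26.8%.

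**Figure D4:**
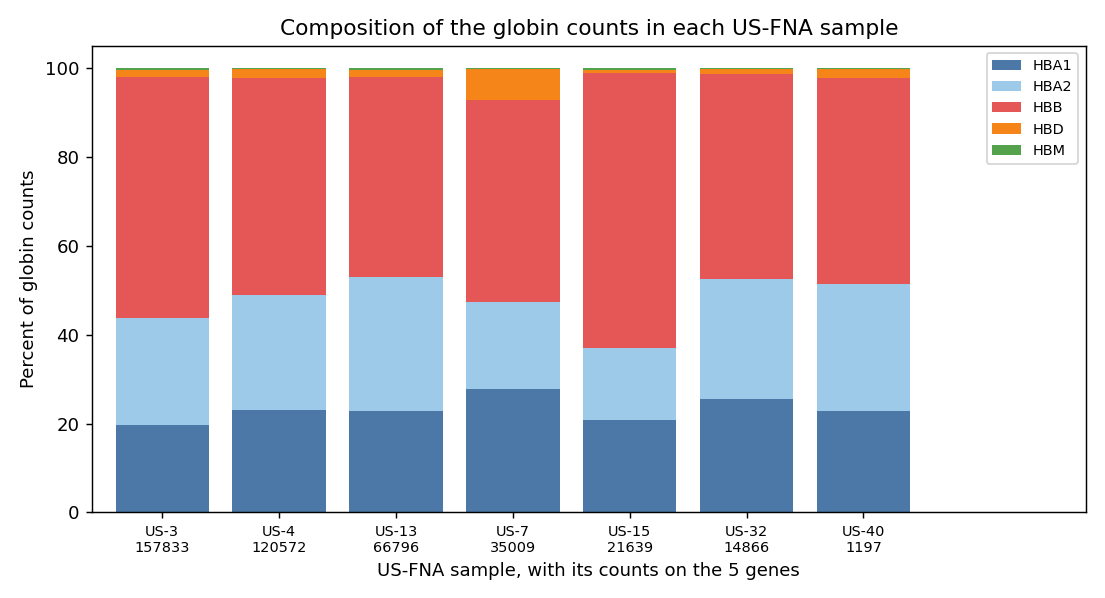
Stacked bars of the 5 genes as percent of globin counts (y axis) in each US-FNA sample (x axis, with its globin counts). HBB makes up 45.1% to 62.0% of the bars, the latter in US-15, and HBD is widest in US-7 with 6.94%.

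Covariation was examined on log2 CPM over the 7 US-FNA samples and over the 18 tissues, with 10 gene pairs in each and p-values adjusted over all 20. Over US-FNA, Pearson's r ranged from 0.982 to 0.992 among HBA1, HBA2 and HBB, with Spearman's rho of 0.857 to 0.964 (exact permutation tests, two-sided, p of r 0.000794 to 0.00238, BH-adjusted 0.00317 to 0.00573, and p of rho 0.00278 to 0.0238, BH-adjusted 0.0111 to 0.0340). HBD with these 3 genes gave r of 0.898 to 0.934 and rho of 0.714 to 0.857 (exact permutation tests, BH-adjusted p of 0.00761 to 0.0198 for r and 0.0340 to 0.117 for rho). HBM gave r of 0.859 with HBD to 0.981 with HBB, and rho of 0.679 to 0.964 (exact permutation tests, BH-adjusted p of 0.00198 to 0.0203 for r and 0.0111 to 0.137 for rho). All 10 pairs passed 0.05 by r and 8 by rho, the exceptions being HBD with HBB and HBD with HBM. US-40 was lowest and US-3 highest for each gene.

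When the 2 samples farthest from the median of the first gene were left out, US-40 was among them for all 10 pairs. The remaining 5 aspirates gave r of 0.929 to 0.974 among HBA1, HBA2 and HBB and 0.652 to 0.818 for HBD with these genes. HBB with HBM kept an r of 0.970, whereas HBD with HBM had 0.710. Such r over 5 samples was not tested. The correlations over US-FNA pool both diagnoses. They were not computed within a diagnosis, since only sets of at least 6 samples, before any was left out, were used. There were 5 non-malignant and 2 malignant aspirates.

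The difference in r between aspirates and tissue was not tested. Over the 18 tissues, HBA1, HBA2 and HBB were correlated with r of 0.949 to 0.969 and rho of 0.936 to 0.959 (permutation tests, two-sided, p = 1e-05 for each, the smallest that 100000 permutations can give, BH-adjusted 6.67e-05). HBD reached r of 0.603 to 0.672 and rho of 0.577 to 0.664 with them (permutation tests, p of r 0.00233 to 0.00795, BH-adjusted 0.00573 to 0.0114, and BH-adjusted p of rho 0.0122 to 0.0243). HBM had r of 0.15 to 0.358 and rho of 0.106 to 0.363 with the other genes, and no pair passed (permutation tests, p of r 0.144 to 0.554, BH-adjusted 0.170 to 0.554, and BH-adjusted p of rho 0.165 to 0.677). HBD and HBM were at 0 to 12 counts per tissue. Without the 2 tissues farthest from the median, r was 0.929 to 0.964 among HBA1, HBA2 and HBB, 0.595 to 0.659 for HBD and 0.0559 to 0.289 for HBM.

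Within each diagnosis, the 3 genes HBA1, HBA2 and HBB remained correlated over 9 tissues, with r of 0.922 to 0.971 in non-malignant (exact permutation tests, BH-adjusted p of 0.00117 to 0.00167) and 0.958 to 0.983 in malignant tissue (exact permutation tests, BH-adjusted p of 0.000551 to 0.00117). Their rho was 0.850 to 0.95 and 0.883 to 0.967, and without the 2 farthest samples r was 0.732 to 0.855 and 0.920 to 0.970. HBD gave r of 0.497 to 0.672 in non-malignant tissue (exact permutation tests, BH-adjusted p of 0.0882 to 0.236) and 0.689 to 0.746 in malignant tissue (exact permutation tests, BH-adjusted p of 0.0444 to 0.0788). Without the 2 farthest samples, r for HBD was -0.00938 to 0.581 in non-malignant and 0.383 to 0.654 in malignant tissue, so it rested in part on those samples. For HBM, r ranged from -0.494 to 0.386 in non-malignant tissue, where 7 of 9 samples had no HBM count, and from 0.499 to 0.681 in malignant tissue (exact permutation tests, BH-adjusted p of at least 0.0882 in each).

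**Figure D5:**
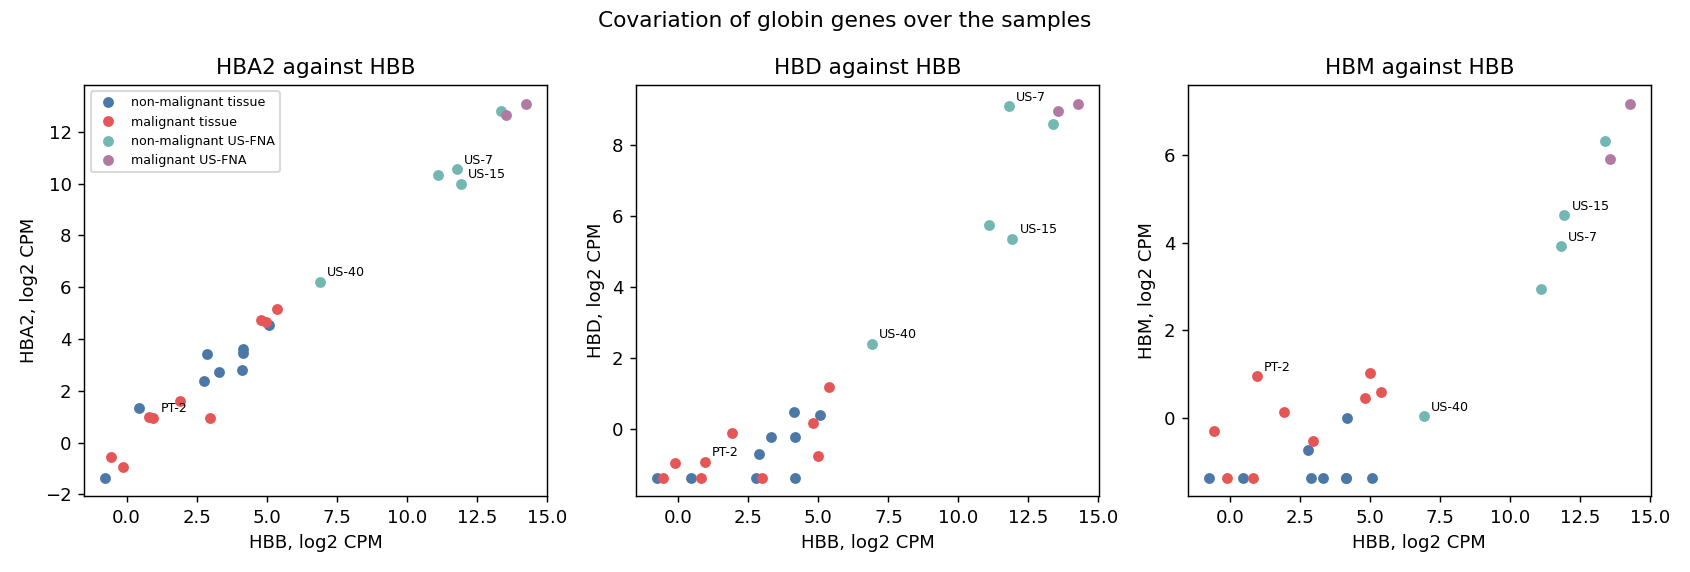
Scatter plots of HBA2, HBD and HBM (y axes, log2 CPM) against HBB (x axes, log2 CPM), with 1 point per sample and the 4 groups in color. HBA2 follows HBB through aspirates and tissues, HBD separates US-7 from US-15 at near-equal HBB, and HBM against HBB has r of 0.981 in aspirates and 0.288 in tissue, where HBM has at most 11 counts.

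The globin genes were also ranked against the other 15295 genes past the filter by Pearson's r. Over the 7 US-FNA samples, HBA1 was the gene most like HBA2 and HBB (rank 1 for each), HBB was the gene most like HBM (rank 1), HBB ranked 2 for HBA1 behind ENSCAFG00000002461 (r 0.992), and the closest globin to HBD was HBA1 at rank 8. For HBM, HBD stood at rank 158. Over the 18 tissues, HBB and HBA1 were each other's closest gene, HBB ranked 4 for HBD, and the globin closest to HBM, HBA1, ranked 3921. With 7 samples many genes reach a high r, and 23 to 58 genes exceeded 0.9 for a given globin, against 0 to 3 over the 18 tissues.

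Outside the 5 globin genes, the gene most like the summed globin level over the 7 US-FNA samples was ENSCAFG00000002461, with r of 0.985 and 6 to 36 counts. It had r of -0.0847 over tissue, where it reached at most 10 counts. Over all 25 samples and over tissue alone, the closest gene was ENSCAFG00000029568, with r of 0.872 over 18 tissues and 0.947 over 7 US-FNA samples. It had 136 to 17971 counts in US-FNA and 0 to 65 in tissue. Both were chosen for this likeness among 15296 genes, so no p-value is given. The files do not pair their IDs with names, so whether either is a further globin gene is not known.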

How the data were processed

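The authors deposited 1 file of untransformed counts for each of the 25 samples, made with Trimmomatic 0.32 for trimming, TopHat2 for mapping (CanFam3.1) and HTSeq for counting by Ensembl ID. The htseq tallies of reads outside genes (58.8% to 70.3% of alignments without a feature) were left out of library sizes and tests, and the tally of alignments that were not unique was 0 in each file. The reference table of gene names matched 0 of the IDs, so the planned lists of cell type markers could not be used and were not reported. The globin, KLK2, KLK4 and ACPP IDs came from the study.

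Genes with low counts were removed with filterByExpr (groups as above, with a minimum count of 10 and a minimum total of 15), leaving 15296 genes. Counts were normalized by TMM and each comparison was fitted to its 2 groups alone with the quasi-likelihood test of edgeR 4.0.16 in R 4.3.3, with the interaction fitted to all samples. The FDR is the Benjamini-Hochberg (BH) correction over all genes tested. DEGs needed an FDR under 0.00001, the threshold of the study, and 0.05 was counted as well. The SE came from the fold change and the F statistic. DESeq2 1.42.0 was an alternative. CPM and log2 CPM (prior count 2) were computed from the TMM-scaled counts of all samples.

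Shares used libraries with at least 10 counts in the denominator, and the log2 alpha to beta ratio those with at least 10 alpha plus beta counts, with 0.5 added to each sum. They were compared by two-sided exact permutation of the difference in means, and correlations by permuting the pairings, exactly for 7 or 9 samples and 100000 times for 18 (seed 1). Wilson intervals were at 95%, and a count of 0 allowed 3 counts. All intervals and limits cover counting error only. The summed globin level was log2 of the summed CPM plus 0.5. Named genes were the 5 globins, the 3 prostate genes, and the genes most correlated with the summed globin level. Alternatives were other size factors, no filter, 1 fit of all groups, globins or KLK2 left out of normalization, other minimums and pseudocounts, HBA1 or HBA2 to HBB alone, and each US-FNA sample left out. The fits were checked on simulated data. Ratios and correlations were computed in Python 3.11.15 (SciPy 1.17.1, NumPy 2.4.6, pandas 2.3.3), and figures with matplotlib 3.10.9. The members and lists were chosen with earlier results of these data known.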

Additional observations from a re-analysis of the deposited data

Results flagged for a closer look

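A sample far from the others of its group was looked for in 30 sets of values, and chance marks about 1 in 20 such sets. In non-malignant US-FNA, the HBD share of beta counts was 13.2% in US-7, with the next sample at 3.97%. In malignant tissue, the HBM share of globin counts was 26.8% in PT-2, with the next at 7.27%, and rests on 11 HBM counts. The log2 alpha to beta ratio of PT-3 was -0.87, with the next malignant tissue at 0.39, from 26 alpha and 48 beta counts. In non-malignant tissue, HBM in PT-11 had a log2 CPM of -0.00414, with the next at -0.72, from 2 counts against 1. The causes were not tested.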

How the results depend on the processing

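No log2 fold change of a globin gene changed sign under any of the alternatives run. For non-malignant US-FNA against non-malignant tissue, 0 genes passed an FDR under 0.00001, against 5 with DESeq2 (123 of 23402 genes higher), 5 without a filter on low counts (15 of 23434) and 5 at an FDR under 0.05 (1116 of 15210), and 0 to 5 when each aspirate was left out in turn. For malignant US-FNA against malignant tissue, 0 became 5 with DESeq2 (40 of 22833 genes), 5 at an FDR under 0.05 (376 of 15260) and 1 in 1 fit of all groups (7 of 15296). For malignant against non-malignant tissue, 0 became 1 at an FDR under 0.05 (5009 of 15293). With 1 malignant aspirate left, it was assumed to vary like the other samples. The cause of these changes was not tested. Of the 101 alternatives of the ratio tests, 89 kept their direction and their side of the threshold and 12 changed direction, each in a difference that passed no test. With a minimum of 30 counts, malignant minus non-malignant tissue was 0.076 for the log2 alpha to beta ratio, -1.87 points for the HBA1 share and -0.77 points for the HBD share, and malignant US-FNA minus malignant tissue was 0.327 points for the HBA1 share and 1.46 points for the HBD share. With a minimum of 1 count, the HBA1 share differed by -0.336 points (non-malignant US-FNA minus tissue), 3.4 points (malignant US-FNA minus tissue) and -7.86 points (malignant minus non-malignant tissue). With HBA1 to HBB alone, the tissue difference of the log2 ratio was 0.11. Leaving out 1 aspirate moved malignant minus non-malignant US-FNA between -0.27 and 0.042 for the log2 ratio, between -2.38 and 0.657 points for the HBD share and between -0.0230 and 0.132 points for the HBM share. The adjusted p of the HBM share between the tissues was 0.125 to 0.270 over its alternatives. The median r over US-FNA was 0.961, and 0.868 without the 2 samples farthest from the median. The pairs past 0.05 in tissue were 6, against 3 within non-malignant and 4 within malignant tissue, with 9 samples each. The setting without PT-2 was chosen after seeing the data. No paired analysis was possible because the labels do not say which aspirate and tissue came from the same dog.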
